A study of Homo sapiens with 16 samples.

Results

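Cells of the neuroblastoma line SK-N-AS that carried AXL transcripts were compared with cells of the same cultures in which none was counted. A cell was called AXL positive when it had at least 1500 counts in all, 0 counts in the row that joins INS-IGF2 with INS, and 2 or more AXL counts. AXL negative cells met the same conditions on total and INS-IGF2 and had 0 AXL counts. AXL was sparse, with 455 counts in the 325 cells that met both conditions. A count of 0 therefore does not show that a cell lacked AXL. Of 603 cells, 115 were AXL positive and 117 were AXL negative. A further 93 cells with exactly 1 AXL count were placed in neither group, 106 cells with enough counts had INS-IGF2 counts, and 172 cells were below the minimum total.

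SK-N-AS is an established human line from a neuroblastoma, a tumour of the sympathetic nervous lineage. It was grown untreated in RPMI1640 with fetal calf serum, detached with versene, and sorted cell by cell into plate wells for MARS-seq, a method that counts the 3' ends of polyadenylated RNA in single cells. The labels list 16 samples of the line with no difference in genotype, treatment or time between them, and the column names of the table do not show which sample a cell came from. All cells therefore count as 1 sample of untreated SK-N-AS, there is no replicate, and no test was made.

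AXL is a receptor tyrosine kinase of the TAM family, whose other members are TYRO3 and MERTK and whose main ligand is the vitamin K dependent protein GAS6. Neuroblastoma cells are known in an adrenergic state, held by sympathetic transcription factors such as HAND2 and GATA3, and in a mesenchymal state marked by vimentin, CD44 and AP-1 factors such as FOSL1, and AXL is usually counted with the mesenchymal genes. Plasminogen activators such as PLAT and PLAU turn plasminogen into plasmin at the cell surface, and inhibitors of the serpin family, such as SERPINB2, block them.

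The promoters of AXL, of the marker CD44 and of SERPINB2, a gene with one of the highest ratios below, are shown because they differ in the motif for AP-1, the factor family of the marker FOSL1. Each line is the 250 bases before the start listed in RefSeq on build GRCh38.p14, all on the plus strand: AXL at chr19:41218973-41219222, CD44 at chr11:35138921-35139170 and SERPINB2 at chr18:63887455-63887704. RefSeq lists 2 starts for AXL, and the first was used. Capitals mark matches to the AP-1 motif TGANTCA or, on either strand, to the GC box GGGCGG, and no match overlaps another.
AXL: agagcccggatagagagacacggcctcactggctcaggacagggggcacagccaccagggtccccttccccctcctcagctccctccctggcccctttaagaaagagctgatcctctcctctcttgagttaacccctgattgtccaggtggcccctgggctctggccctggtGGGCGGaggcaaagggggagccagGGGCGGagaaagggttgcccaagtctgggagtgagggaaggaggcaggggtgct
CD44: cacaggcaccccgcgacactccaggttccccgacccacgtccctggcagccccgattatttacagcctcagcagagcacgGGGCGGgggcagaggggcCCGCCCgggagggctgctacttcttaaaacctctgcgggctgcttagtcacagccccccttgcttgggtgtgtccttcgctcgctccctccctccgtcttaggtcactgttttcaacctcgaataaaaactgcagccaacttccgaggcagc
SERPINB2: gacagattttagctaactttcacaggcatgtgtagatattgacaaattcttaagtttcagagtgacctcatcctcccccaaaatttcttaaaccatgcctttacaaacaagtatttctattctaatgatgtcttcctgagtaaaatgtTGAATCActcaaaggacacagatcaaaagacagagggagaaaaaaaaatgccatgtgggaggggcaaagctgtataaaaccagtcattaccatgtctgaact
The SERPINB2 stretch had 1 AP-1 match, beginning 102 bases before the start, no GC box and 37.2% G and C. Those of AXL and CD44 had 64.4% and 62.4% G and C and 2 GC boxes each, beginning 78 and 54 bases before the AXL start and 170 and 152 before that of CD44, and neither held the AP-1 letters. Among 27305 promoters of the same length, 6.6% held the AP-1 motif and 42.3% a GC box. The TEAD motif GGAATG, which 11.9% of promoters held on either strand, was in none of the 3. A match describes the letters only.

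The AXL positive cells summed to 459995 counts and the AXL negative cells to 280618. The median total was 3203 in AXL positive cells (1512 to 42404) and 2257 in AXL negative cells (1507 to 6415). A cell with more counts is more likely to reach 2 of any gene, so the rule favours deeper cells in the AXL positive group. The deepest AXL positive cell held 9.22% of its group's counts, and 10 AXL positive cells were deeper than any AXL negative one. Levels are given in CPM, the summed counts of a gene divided by all counts of the group and put on a common scale, with exact 95% Poisson intervals. Ratios are log2 of the CPM in AXL positive cells over that in AXL negative cells, with exact 95% binomial intervals. Shares of cells are given after each cell was thinned at random to 1500 counts. The intervals hold counting error alone and leave out how cells, plates and cultures vary. At the thinned depth a median of 922 genes was counted per AXL positive cell and 918 per AXL negative cell, and ribosomal protein genes took 16.2% and 17.0% of the counts.

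Barcodes repeat along the table, which splits its columns into 316 and 287, called barcode sets 1 and 2 here; the study does not define them. The AXL positive cells were 66 from set 1 and 49 from set 2, and the AXL negative cells 71 and 46, so both groups drew on both sets. Of 364 distinct barcodes, 239 occurred in both sets, and 16 of these belonged to an AXL positive cell in each. In 12 consecutive blocks of 50 columns there were 4 to 15 AXL positive cells, from 16.7% to 48.4% of the cells that passed the filter. AXL positive cells were therefore spread along the whole table.

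The cells were chosen by their AXL, INS-IGF2 and total counts, so these values are a description. In AXL positive cells it had 362 counts, or 787 CPM (708 to 872), with a lowest count of 2, a median of 2 and a highest of 10 per cell. Exactly 2 counts were present in 60 of the 115 cells, so the median cell of the group stood just inside the threshold. Where INS-IGF2 was counted, AXL was lower: it reached 463 CPM (421 to 507) in the 325 cells without INS-IGF2 counts and 211 CPM (165 to 266) in the 106 cells with them, and 20 of those 106 had 2 or more AXL counts. The TAM relatives of AXL and the ligands listed for the TAM family, not all of them ligands of AXL itself, were rare. MERTK had 3 counts in AXL positive and 5 in AXL negative cells, TYRO3 had 13 and 18, the ligand PROS1 had 5 and 2, and GAS6 had 0 in both groups. A fixed limit of 3 counts for GAS6 is 6.52 CPM in AXL positive and 10.7 CPM in AXL negative cells. LGALS3, a galectin listed with them, had a log2 ratio of 0.32. Summed over the 6 genes of this TAM family list, the ratio was -0.24 (-0.74 to 0.27).

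Genes with at least 50 counts in both groups together were compared, 2716 in all. Of these, 193 (7.11%) were at least 1.5-fold higher in AXL positive cells and 121 (4.46%) at least 1.5-fold lower. The median log2 ratio was 0.01, and 50.9% of the genes had a ratio above 0. These shares are the background for the counts of gene groups given here. A gene could reach the minimum through 1 group alone, so counts over a list describe the members that reached it. High ratios among well counted genes belonged to the plasminogen activator inhibitor SERPINB2, to PLAT, to the integrin subunit ITGA3 and to FOSL1. The lowest belonged to DDC, an enzyme of catecholamine synthesis, to the complement gene C7, to the secreted growth factor PTN and to D4S234E, a neuronal endosomal protein.

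**Figure D1:**
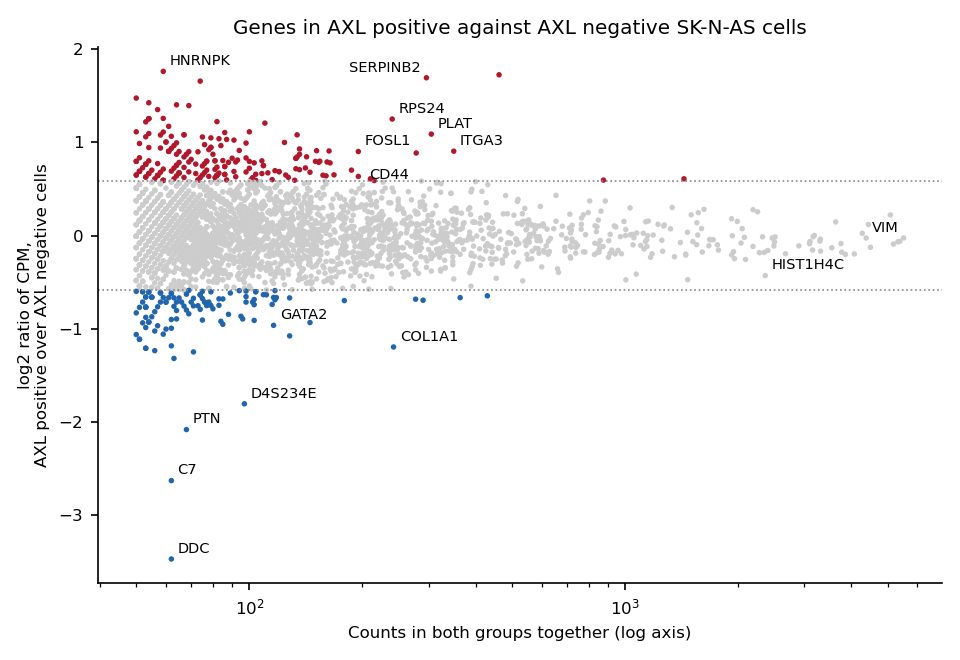
Each point is 1 of 2716 genes, with its counts in both groups together on a log x axis and its log2 ratio of CPM, AXL positive over AXL negative cells, on the y axis. Dotted lines mark 1.5-fold, red points are the 193 genes above and blue points the 121 below, and the spread of ratios is wide at low counts, while SERPINB2 near the top and DDC and C7 at the bottom stand apart from most genes of like count.

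Of the 3 markers given with the rule besides AXL, PLAT and FOSL1 were past 1.5-fold and CD44 was below it. PLAT, tissue plasminogen activator, had a lowest count of 0, a median of 1 and a highest of 22 per AXL positive cell, and 0, 0 and 12 per AXL negative cell. Its level was 515 CPM against 242 CPM, a log2 ratio of 1.09 (0.69 to 1.499). At the thinned depth it was counted in 34.8% of AXL positive and 20.5% of AXL negative cells, so the groups overlapped cell by cell. The ratio was 1.37 in barcode set 1 and 0.69 in set 2, and it was 0.14 when all cells were thinned and the 149 with 1 or more thinned AXL counts were set against the 176 with 0. That setting changes both the depth and the AXL threshold, and it mixes the groups. Its 176 cells include 21 AXL positive cells and 38 cells with 1 AXL count that lost their AXL counts in thinning. With cells thinned and the groups kept, PLAT was at 1.01.

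FOSL1, an AP-1 transcription factor, had counts of 0, 1 and 8 per AXL positive cell (lowest, median and highest) and 0, 0 and 5 per AXL negative cell. It stood at 320.0 CPM against 171 CPM, a log2 ratio of 0.90 (0.42 to 1.40), with 39.1% against 21.4% of cells at the thinned depth. Within the barcode sets its ratio was 1.30 and 0.41. CD44, the hyaluronan receptor, had counts of 0, 1 and 9 per AXL positive cell and 0, 0 and 5 per AXL negative cell. Its level was 307 CPM against 210.2 CPM, a log2 ratio of 0.54 (0.10 to 1.01), and 46 of 115 against 26 of 117 thinned cells had a count. Among cells with at most 3000 counts the CD44 ratio was 0.22. Within the barcode sets it was 0.44 and 0.72, so CD44 was the lowest of the markers in set 1 and the highest in set 2.

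SERPINB2, an inhibitor of plasminogen activators, had counts of 0, 1 and 33 per AXL positive cell and 0, 0 and 10 per AXL negative cell. It stood at 541 CPM against 167 CPM, a log2 ratio of 1.69 (1.24 to 2.17), with 1.89 in set 1 and 1.46 in set 2. At the thinned depth 32.2% of AXL positive cells had a count, with 15 cells at 3 or more, against 13.7% of AXL negative cells, with 4 at 3 or more. Among cells with at most 3000 counts its ratio was 1.73.

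The plasminogen system was described by a list of 9 genes, of which 5 reached 50 counts. The 5 had ratios above 0, 2 were past 1.5-fold (SERPINB2 and PLAT) and none was 1.5-fold lower, and the median ratio was 0.42 against 0.01 over all genes tested. The receptor gene PLAUR, which holds urokinase at the surface, had a ratio of 0.42, but 0.01 in set 1 and 1.25 in set 2. At the thinned depth 104 of 115 AXL positive and 102 of 117 AXL negative cells had no PLAUR count. The share of cells with a PLAUR count was thus not higher in AXL positive cells. S100A10 and ANXA2, which together bind plasminogen and its activator, had ratios of 0.25 and 0.18. The summed list had a ratio of 0.37 (0.28 to 0.46), with 0.50 in set 1 and 0.21 in set 2. Without SERPINB2 it was 0.29 (0.20 to 0.39), and without SERPINB2 and PLAT 0.23 (0.13 to 0.33). The 7 genes then left held 2430 against 1262 counts, most of them from S100A10 and ANXA2, so that sum mainly describes S100A10 and ANXA2. PLAU, urokinase itself, was below the count minimum and is named because of its values: it had 30 counts in 20 AXL positive cells and 4 counts in 2 AXL negative cells, a log2 ratio of 2.19 (0.69 to 4.16).

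**Figure D2:**
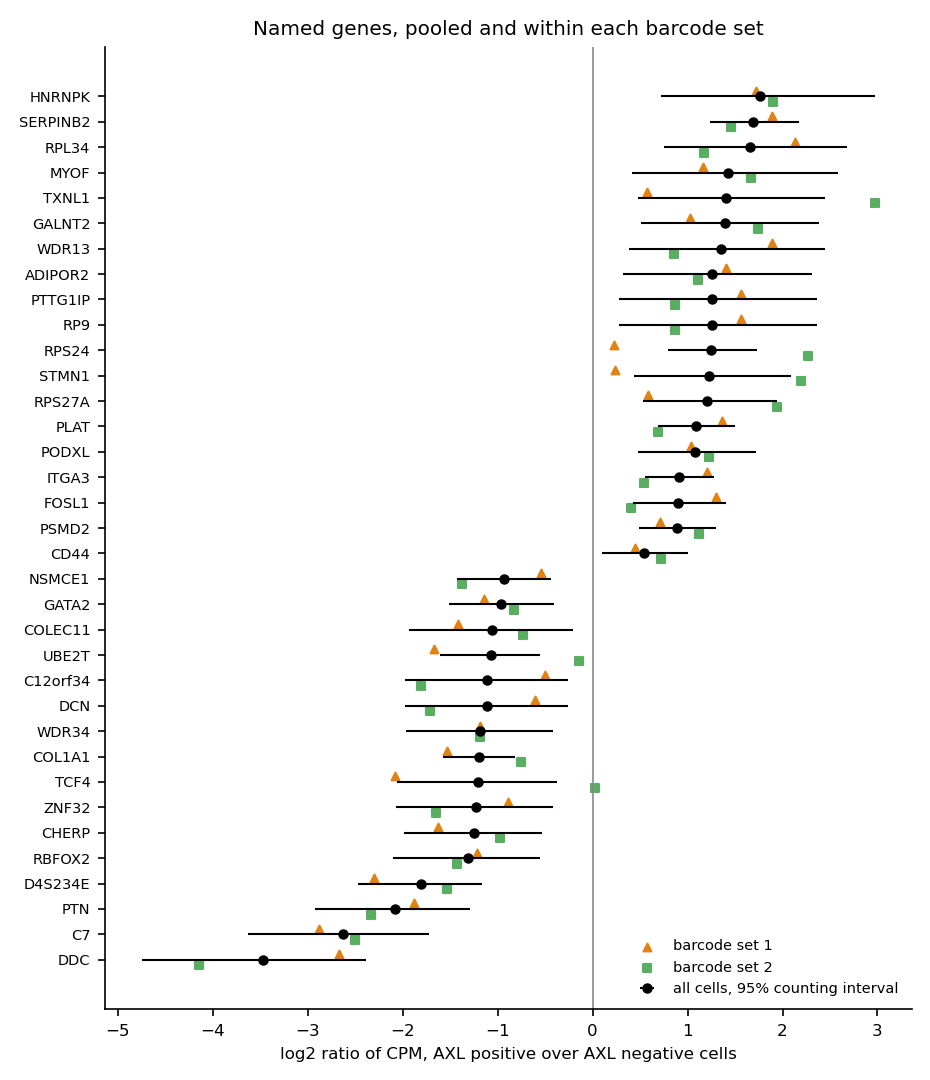
Rows are the named genes, with the log2 ratio of CPM, AXL positive over AXL negative cells, on the x axis. Black points with bars are all cells with the 95% counting interval, triangles and squares are barcode sets 1 and 2 alone, and SERPINB2, C7 and PTN have closer values in the sets than RPS24, STMN1, TXNL1, UBE2T and TCF4.

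Adhesion genes were less uniform. ITGA3, the laminin-binding integrin subunit alpha 3, had counts of 0, 1 and 28 per AXL positive cell and 0, 0 and 5 per AXL negative cell, at 574 CPM against 306 CPM, a log2 ratio of 0.91 (0.55 to 1.27). It was counted in 61 of 115 against 36 of 117 thinned cells, and its ratio was 1.21 in set 1 and 0.54 in set 2. Of 10 integrin and adhesion genes tested, ITGA3 was the 1 past 1.5-fold, 8 were above 0, and the median was 0.24. The tetraspanin CD151, which binds laminin-binding integrins, followed at 0.32 and the integrin subunits ITGB5 and ITGB1 stood at 0.26 and 0.13. PODXL, a sialomucin of the cell surface, had 104 counts against 30, a ratio of 1.08 (0.48 to 1.72), with 1.04 and 1.23 in the sets.

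Among AP-1 and immediate early genes, 3 of 19 reached the count minimum. FOSL1 and KLF6, a zinc finger factor, were past 1.5-fold at 0.90 and 0.59, and IER3 stood at 0.23. JUN, below the minimum, had 19 counts against 23, and FOSB had none in either group, so the values differed among AP-1 members. Of 8 tested genes read as output of the MAPK pathway, DUSP4, a phosphatase that switches ERK off, was at 0.90 and the feedback inhibitor SPRY2 at 0.59, while ETV4 was at -0.07 and CCND1, cyclin D1, at 0.08. The median of the 8 was 0.24 and 7 were above 0. Their summed list, with members below the minimum, had a ratio of 0.25 (0.12 to 0.38).

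Targets of the transcription coactivators YAP and TAZ and their TEAD partners had the highest summed ratio of the lists with 100 or more counts, 0.54 (0.33 to 0.75), with 0.38 in set 1 and 0.75 in set 2. The sum was 0.30 with cells thinned and grouped anew by 1 or more against 0 AXL counts. MYOF, a membrane repair protein, led at 44 counts against 10, a ratio of 1.42 (0.41 to 2.58). CCDC80 was at 0.90 and FJX1 at 0.83, so 3 of 7 tested members were past 1.5-fold. NT5E, the surface enzyme CD73, was at 0.52, PTPN14 at 0.54 and TEAD1 at 0.12, with a median of 0.54. Of the 7 tested members, 6 were above 0 and 1 was below. The classical target CYR61 was below the minimum and is named because of its values, with 28 counts against 5, while CTGF had 0 counts in both groups. The members that led the list were counted in few cells, MYOF in 27 AXL positive and 10 AXL negative cells at full depth.

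The core mesenchymal list was level as a whole in the main comparison. VIM, the intermediate filament vimentin, had a lowest count of 1, a median of 16 and a highest of 217 per AXL positive cell and 1, 11 and 162 per AXL negative cell. At 5876 CPM against 5983 CPM its log2 ratio was -0.03, so vimentin stood at a close level in both groups. TWIST1, a bHLH factor of mesenchymal cells, was at -0.05, the BMP targets ID1 and ID3 at -0.01 and -0.34, and TEAD1 at 0.12. Of 9 tested genes of the list, FOSL1 was past 1.5-fold, 5 were above 0 and the median was 0.02. The summed ratio was 0.00 (-0.07 to 0.07), and without VIM it was 0.05 (-0.07 to 0.17). The sum of the whole list was 0.07 in set 1 and -0.10 in set 2. It was 0.09 without the deepest cell of each group and 0.15 with the INS-IGF2 condition dropped.

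Of the adrenergic list, 5 of 24 genes reached 50 counts, 3 of them 1.5-fold lower in AXL positive cells, and the median was -0.84. DDC, aromatic L-amino acid decarboxylase, had a highest count of 3 per AXL positive cell and 6 per AXL negative cell, and medians of 0. It was counted in 5 AXL positive and 23 AXL negative cells at full depth and stood at 17.4 CPM against 192 CPM, 11.1-fold lower, a log2 ratio of -3.47 (-4.75 to -2.39). The 8 DDC counts in the AXL positive group make the lower level imprecise, but the ratio was -2.67 and -4.15 in the sets and -2.13 between thinned cells with 1 or more AXL counts and those with 0. GATA2, a sympathetic transcription factor, stood at 115 CPM against 225 CPM, a ratio of -0.96 (-1.52 to -0.41), with 13.9% against 25.6% of thinned cells. GATA3 had a ratio of -0.84 (-1.48 to -0.21), with 15 AXL positive and 25 AXL negative thinned cells.

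Other adrenergic factors did not follow DDC. HAND2 was at -0.03 (-0.46 to 0.41), and TBX2 at 0.18 (-0.15 to 0.51). The summed adrenergic ratio was -0.38 (-0.57 to -0.20), with -0.22 in set 1 and -0.60 in set 2. It was -0.21 without DDC and -0.09 (-0.30 to 0.13) without DDC and GATA2, so the list rested on these genes. Of 6 tested sympathetic neuronal genes none was past 1.5-fold either way, with a median of 0.00. UCHL1, a neuronal ubiquitin hydrolase, stood at 0.30, the granin SCG2 at -0.02 and the secreted peptide precursor VGF at -0.24. DBH, which turns dopamine into noradrenaline, had 0 counts in both groups.

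**Figure D3:**
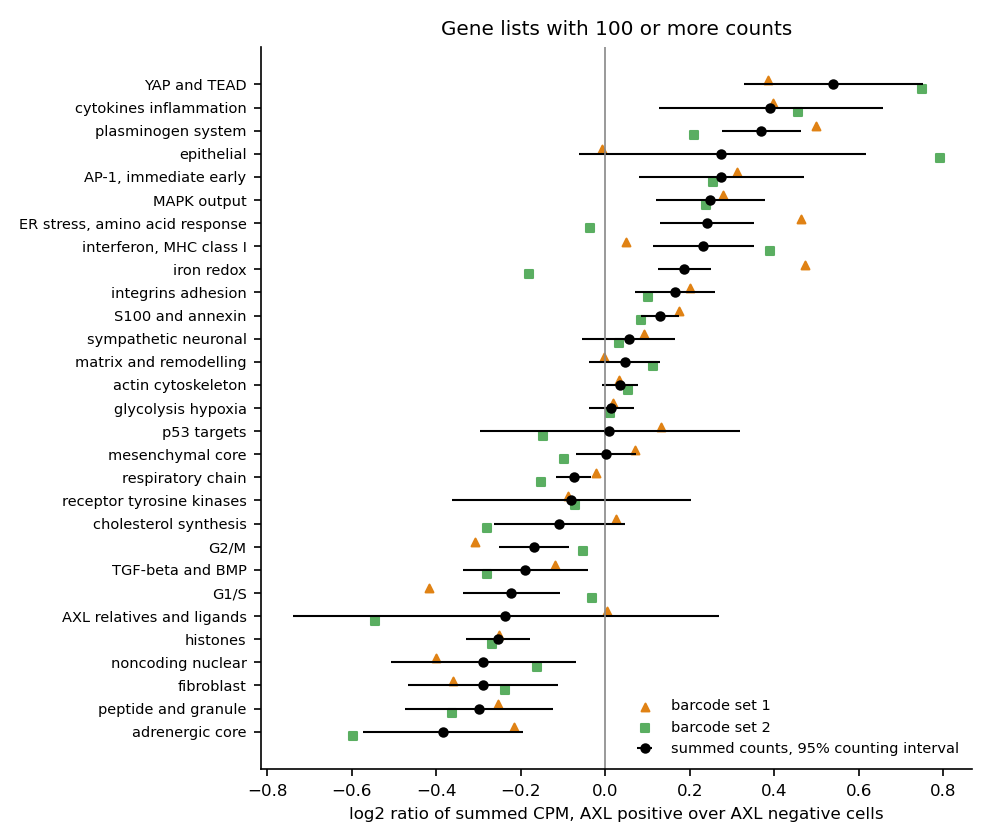
Rows are the gene lists with 100 or more counts, with the log2 ratio of summed CPM, AXL positive over AXL negative cells, on the x axis. Points with bars are all cells with the 95% counting interval, triangles and squares are barcode sets 1 and 2, and the YAP/TEAD and plasminogen lists stand high at 0.54 and 0.37, the mesenchymal list at 0.00 and the adrenergic list at the bottom at -0.38.

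Secreted and matrix genes were among the lowest ratios. C7, a component of the complement membrane attack complex, had a highest count of 3 per AXL positive cell and 8 per AXL negative cell, at 28.3 CPM against 175 CPM, a log2 ratio of -2.63 (-3.63 to -1.72), with -2.88 and -2.50 in the sets. PTN, pleiotrophin, was at 41.3 CPM against 175 CPM, a ratio of -2.08 (-2.93 to -1.29). C7 and PTN were each counted in 4.35% of AXL positive and 15.4% of AXL negative thinned cells. D4S234E, now named NSG1, was at 67.4 CPM against 235 CPM, a ratio of -1.80 (-2.47 to -1.17), with 7.83% against 20.5% of thinned cells. COL1A1, the collagen I alpha 1 chain, stood at 220 CPM against 502 CPM, a ratio of -1.19 (-1.58 to -0.82), and its highest count in 1 cell was 8 in the AXL positive and 19 in the AXL negative group. It was counted in 23 of 115 against 34 of 117 thinned cells.

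Other matrix genes did not share the COL1A1 value. Of 14 tested, COL6A2 was past 1.5-fold higher at 0.65 and COL1A1 lower, with a median of 0.16 and a summed ratio of 0.05 (-0.04 to 0.13). The gelatinase MMP2 was at 0.23, the protease inhibitor TIMP1 at 0.12 and the matricellular protein SPARC at -0.04. Of 5 tested fibroblast genes, COL1A1 and DCN, the proteoglycan decorin, were 1.5-fold lower, DCN at -1.11 (-1.98 to -0.26), while THY1 and COL3A1 stood at 0.22 and 0.39. The summed fibroblast ratio was -0.29 (-0.47 to -0.11), and -0.02 without COL1A1. COL1A2, the partner chain of COL1A1, had 0 counts in both groups.

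The remaining genes with the highest ratios had few counts or were concentrated in few cells. HNRNPK, an RNA-binding protein, had 50 counts against 9, a ratio of 1.76 (0.72 to 2.97), and TXNL1, GALNT2, WDR13, ADIPOR2, PTTG1IP and RP9 had 43 to 56 counts against 11 to 13, with ratios of 1.25 to 1.40. With the INS-IGF2 condition dropped, HNRNPK was at 0.75 and PTTG1IP at -0.070. A row named only by a sequence record was also among the 15 highest. The proteasome subunit PSMD2 was better counted, with 209 counts against 69, a ratio of 0.89 (0.49 to 1.30). The ribosomal protein genes RPL34, RPS24 and RPS27A were at 1.66, 1.25 and 1.21, but 64.9% of the RPL34 counts and 42.5% of the RPS24 counts lay in 5 cells each, RPS24 was counted in 24.4% against 22.2% of thinned cells, and its ratio was 0.23 in set 1 and 2.27 in set 2. These genes have many processed pseudogenes, so how the reads were assigned is uncertain. STMN1, a microtubule regulator, was likewise at 0.24 in set 1 and 2.19 in set 2.

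Among the remaining lowest ratios were the RNA-binding splicing factor RBFOX2 at -1.32, CHERP at -1.25, ZNF32 at -1.23, the bHLH factor TCF4 at -1.21, WDR34 at -1.18, C12orf34 at -1.11, the ubiquitin-conjugating enzyme UBE2T at -1.08, the collectin COLEC11 at -1.06 and NSMCE1 at -0.93. Each of these 9 genes had fewer than 150 counts in both groups together. TCF4 was at -2.08 in set 1 and 0.023 in set 2, and UBE2T at -1.67 and -0.15. All 15 genes with the highest ratios were above 0 in both barcode sets. Of the 15 lowest, all were below 0 in set 1 and 14 in set 2. These genes were picked by their ratio in both sets pooled, so the signs within the sets largely follow from the choice.

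Most tested proliferation genes had ratios below 0, but the size depended on the cells compared. Of 16 tested G1/S genes, 13 were below 0, none past 1.5-fold, and the median was -0.15, with TYMS, thymidylate synthase, at -0.43 and the replication clamp PCNA at -0.14. The summed G1/S ratio was -0.22 (-0.34 to -0.11), but -0.42 in set 1 and -0.03 in set 2. Of 21 tested G2/M genes, 13 were below 0 and CDK1, the mitotic kinase, was 1.5-fold lower at -0.77, while the proliferation marker MKI67 was at 0.33. The summed G2/M ratio was -0.17 (-0.25 to -0.09), but -0.05 in set 2, 0.01 in cells with at most 3000 counts and -0.04 with cells thinned. The replication-dependent histone gene HIST1H4C had 2820 CPM against 3795 CPM, a ratio of -0.43, and the 10 tested histone genes had a median of -0.19. Their summed list was at -0.25, and at -0.05 with cells thinned and regrouped. The nuclear noncoding RNA MALAT1 stood at -0.70.

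In several further groups few or no genes were past 1.5-fold. The 18 actin cytoskeleton genes and the 13 S100, annexin and galectin genes had no member past 1.5-fold, with medians of 0.13 and 0.18. The 8 MHC class I and interferon genes had none either, with HLA-C at 0.58 and B2M at 0.50 and a summed ratio of 0.05 in set 1 and 0.39 in set 2. Of the 8 endoplasmic reticulum stress genes tested, 2 were past 1.5-fold, the chaperone HSPA5 at 0.84 and PPP1R15A at 0.65, and the summed list was 0.24 (0.13 to 0.35), but 0.46 in set 1 and -0.04 in set 2. The metal-binding protein gene MT2A was at 0.60, and the ferritin light chain gene FTL was at 0.59 in set 1 and -0.27 in set 2. In the inflammatory list, NFKBIA, the inhibitor of NF-kappa-B, had 46 counts against 13, a ratio of 1.11, and TNFRSF12A, the receptor of the cytokine TWEAK, stood at 0.58. The summed inflammatory list was 0.39 (0.13 to 0.66), with 0.40 and 0.46 in the sets, and 0.19 (-0.18 to 0.57) without TNFRSF12A.

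Marker lists of 5 other cell types held few counts in both groups. The Schwann cell precursor list had 11 counts in AXL positive and 5 in AXL negative cells, the adrenal cortex list 10 and 3, the endothelial list 7 and 12, the immune list 35 and 24, nearly all of it CD68, and the erythroid list 0 and 0. SOX10, NR5A1, STAR, VWF, CDH5, CD3E and LYZ had 0 counts in both groups. The epithelial list held more, 220 counts in AXL positive and 111 in AXL negative cells, and was led by KRT18, a keratin, at 370 CPM against 303 CPM, with CDH1 at 0, and its summed ratio was 0.27 (-0.06 to 0.62).

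The cells with exactly 1 AXL count show how the values lie on either side of the threshold, and they are given as a description. The cells with 0, 1, 2 to 3 and 4 or more AXL counts numbered 117, 93, 79 and 36, with median totals of 2257, 2378, 3014 and 3793. SERPINB2 was at 167, 264, 368 and 779 CPM in this order and PODXL at 107, 124, 207 and 253 CPM, so both were higher with each class. For SERPINB2 the intervals at 1 and at 2 to 3 AXL counts overlapped (203 to 337 and 299 to 449 CPM). Its share of thinned cells with a count was 13.7%, 28.0%, 26.6% and 44.4%, so it did not rise between those 2 classes. For PODXL the share of thinned cells with a count was 17.2%, 26.6% and 11.1% in the classes with AXL counts, so its level in the last class came from few cells. PLAT, at 242, 404, 563 and 449 CPM, and FOSL1, at 171, 301, 346 and 284 CPM, were not highest in the cells with the most AXL. ITGA3 was at 306, 548, 511 and 661 CPM. CD44 was at 210.2, 276, 229 and 413 CPM, with the highest level in the cells with 4 or more AXL counts.

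For DDC, C7, PTN, D4S234E and COL1A1, most of the gap lay between 0 and 1 AXL count. DDC was at 192, 24.7, 15.02 and 20.6 CPM, C7 at 175, 12.4, 26.3 and 31.0 CPM and COL1A1 at 502, 226, 222 and 217 CPM. PTN stood at 175, 74.1, 33.8 and 51.6 CPM, D4S234E at 235, 111, 93.9 and 31.0 CPM and GATA2 at 225, 185, 113 and 119 CPM. GATA3 was at 164, 157, 90.1 and 92.9 CPM, so for both GATA genes most of the gap lay between 1 and 2 AXL counts. The 60 cells just inside the threshold, with exactly 2 AXL counts, had SERPINB2 at 380.0 CPM, PLAT at 648 CPM, CD44 at 203 CPM, DDC at 20.3 CPM and COL1A1 at 208 CPM, so COL1A1 and DDC stood close to their level in cells with 1 count. Against the whole AXL positive group, the cells just outside the threshold lay nearer to the AXL positive cells than to those with 0 counts for DDC, C7, PTN, D4S234E, COL1A1, PLAT, ITGA3, FOSL1 and CD44, and nearer to those with 0 counts for SERPINB2, PODXL and GATA2.

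**Figure D4:**
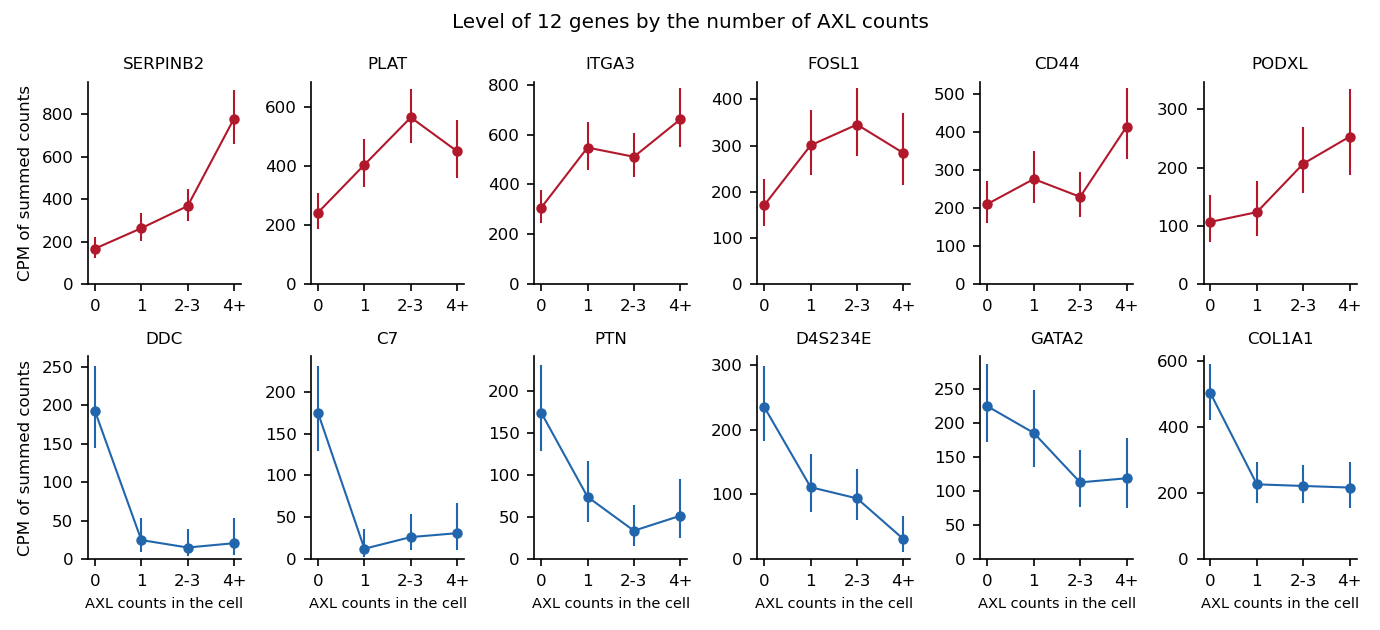
Each panel is 1 gene, with the number of AXL counts in the cell on the x axis (117, 93, 79 and 36 cells) and the CPM of the summed counts on the y axis, which starts at 0, and bars are 95% Poisson intervals. SERPINB2 and PODXL are higher in each next class, while DDC, C7 and COL1A1 are high in the cells with 0 AXL counts and low in the other classes.

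Counted cell by cell at the thinned depth, the high genes overlapped but did not define 1 common set of cells. Of SERPINB2, PLAT, ITGA3, FOSL1, CD44 and PODXL, 3 or more were counted in 48 of 115 AXL positive cells (41.7%), in 23 of 93 cells with 1 AXL count (24.7%) and in 14 of 117 AXL negative cells. None of them was counted in 10, 7 and 40 cells. These genes were chosen for their ratios, so the order of the AXL positive and negative shares follows from the choice. Within the AXL positive cells, pairs of the 6 genes met on either side of the product of their shares: SERPINB2 and ITGA3 met in 24 cells where the product is 19.6, PLAT and CD44 in 16 where it is 16, and PLAT and FOSL1 in 9 where it is 15.7. Of DDC, C7, PTN, D4S234E, GATA2 and COL1A1, 3 or more were counted in 2 AXL positive cells (1.74%) and in 21 AXL negative cells (17.9%). In the cells with 1 AXL count they were 3 of 93 (3.23%). These genes were chosen for their low ratios, so the order of the AXL positive and negative shares again follows from the choice. A minority of AXL negative cells carried several of them at once, and no product of shares is given for them.

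**Figure D5:**
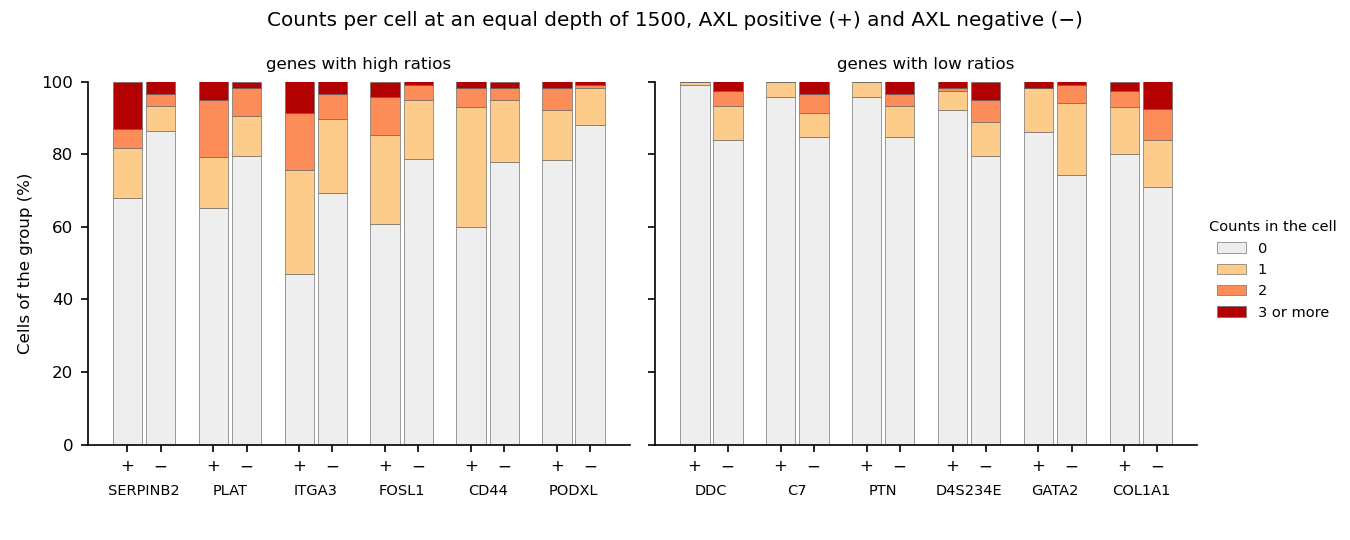
Stacked bars show the share of cells (%) with 0, 1, 2 and 3 or more counts of each gene after thinning to 1500 counts, for 115 AXL positive (+) and 117 AXL negative (−) cells. SERPINB2 has 15 AXL positive cells at 3 or more counts against 4 AXL negative cells, DDC is counted in 1 AXL positive and 19 AXL negative cells, and for every gene shown both groups include cells at 0.

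The position of AXL positive cells relative to depth was checked through the same ratios in other cell sets. Without the 10 AXL positive cells deeper than the deepest AXL negative cell, SERPINB2 was at 1.59, PLAT at 1.18, FOSL1 at 0.97 and DDC at -4.03. Among the 48 AXL positive and 99 AXL negative cells with at most 3000 counts, whose median totals were 2204 and 2127, these genes were at 1.73, 1.06, 1.05 and -2.83. When all cells were thinned and regrouped by 1 or more against 0 thinned AXL counts, they were at 1.28, 0.14, 0.71 and -2.13. SERPINB2 and FOSL1 were thus above 0 and DDC below 0 in each of these settings, while PLAT was near 0 in the last. The last setting also mixes cells of the original groups, so it does not show depth alone. How far plate, culture or sort differences enter these values cannot be told apart, because the columns carry no sample.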

How the data were processed

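RNA was counted in 603 single SK-N-AS cells by MARS-seq. The authors deposited 1 table of raw counts, with genes in 27044 rows and cells in columns. The submitters' processing notes name Bowtie2 2.1.0 and the build hg19. How reads were counted, the annotation, any filter on cells and whether a count is a molecule or a read was not given in the sources used here. Columns carry barcodes that could not be tied to the 16 labelled samples, so all cells were pooled as 1 sample and no p-value was made. The header is 1 field short, so columns were taken by position. A row named unknown held 2 counts (0.00013%) and was left out. No doublet caller was run, since the labels describe cells sorted singly.

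From the deposited counts, CPM, log2 ratios, shares of cells and intervals were computed with Python 3.11.15, numpy 2.4.6, pandas 2.3.3 and scipy 1.17.1, and ratios were checked on simulated data. Genes with at least 50 counts in the compared cells were used, and AXL was left out of all comparisons. Depth limits the precision: a count of 0 allows up to 3 counts, or 6.52 CPM in AXL positive and 10.7 CPM in AXL negative cells. The named genes are the markers, the 15 highest and 15 lowest ratios, the 12 highest lower bounds and 12 lowest upper bounds, and list members. A few genes picked by this rule or by a list are left out of the text, the labels of the plots and the lists, but counts over all genes include them. These are extremes of many ratios, and their intervals do not allow for that choice. The 34 gene lists were matched by current and older symbols, with 660 memberships matched and 4 not. The members, markers and lists were chosen with earlier results of these data known. The alternatives were other cell sets, depth limits, count minimums, folds and scalings, and each barcode set alone.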

Additional observations from a re-analysis of the deposited data

How the results depend on the processing

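The number of genes at least 1.5-fold higher in AXL positive cells was 193, and the number lower 121. These became 87 and 69 of 1482 tested genes (5.87% and 4.66%) in barcode set 1 alone. Set 2 alone gave 149 and 63 of 1261 (11.8% and 5%). Cells with at most 3000 counts gave 85 and 74 of 1151 (7.38% and 6.43%). With the INS-IGF2 condition dropped there were 305 and 255 of 3554 (8.58% and 7.18%). Thinning cells to 1500 counts gave 67 and 60 of 1281 (5.23% and 4.68%). With cells thinned and grouped anew by 1 or more against 0 AXL counts there were 73 and 73 of 1833 (3.98% each). A count minimum of 20 gave 687 and 457 of 5143 (13.4% and 8.89%). A minimum of 100 gave 58 and 23 of 1366 (4.25% and 1.68%). At 2-fold there were 37 and 18 of 2716 (1.36% and 0.663%). Of the main 193 and 121, 41 and 18 recurred in set 1 and 44 and 12 in set 2. With at most 3000 counts, 20 and 13 recurred. Fewer cells or counts leave fewer genes to compare in the sets, the thinned cells and the higher minimum. PLAT was at 0.69 in set 2, 1.53 with the INS-IGF2 condition dropped and 0.14 with cells thinned and grouped anew, and FOSL1 at 0.41 in set 2. The summed plasminogen list was at 0.50 and 0.21 in sets 1 and 2, 0.52 with the condition dropped and 0.27 with cells thinned and grouped anew. The adrenergic list was at -0.22 and -0.60 in the sets and, with the condition dropped, at -0.95. PTTG1IP turned to -0.070 with the condition dropped and TCF4 to 0.023 in set 2, and for the differences without a stated reason the cause was not tested. Of 585 alternative values of 39 named genes, 540 moved by less than their interval, 43 by more and 2 changed sign. Of 495 for 33 lists, 417 and 78. Among the 20 lists whose interval left out 0, 3 sums changed sign: stress to -0.04 and iron to -0.18 in set 2, and G2/M to 0.01 at 3000 counts or fewer. Leaving out the AXL positive cells deeper than any AXL negative cell was chosen after seeing the data. No paired analysis was possible because the columns carry no sample or replicate number.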
